A study of Mus musculus with 24 samples.

Results

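In CD8+ T cells whose label is Tcf7 conditional knockout (cKO), RNA after 24 h of activation was compared with RNA of the resting cells at 0 h. The comparison rests on 6 of the series' 24 libraries, the 24 h and the 0 h library of each of cKO mice 1, 2 and 3, chosen by title, genotype and time label. The remaining 18 libraries were the 4 h and 8 h libraries of the same mice and all 4 times of 3 mice labelled wild type (WT, mice 4 to 6), and they entered the shared model and the comparison with WT. All mice carried the OT-I transgene, a T cell receptor of 1 fixed specificity, and floxed Tcf7. The cKO mice also carried E8i-cre, a recombinase driven by a Cd8a enhancer that is active in mature CD8+ T cells, and the WT mice lacked cre, so deletion and transgene cannot be told apart between the genotypes. Lymph nodes and spleens were the source, and cells were enriched with magnetic beads against CD8. The 0 h sample was taken before plating, and cells for the 24 h sample were kept with murine IL2 at 6 ng/mL on plastic coated with 1 ug/mL of anti-CD3 and anti-CD28, antibodies that trigger the T cell receptor and the co-receptor CD28. Every library came from 1000 sorted cells and was made with Smart-seq2, a full-length protocol that amplifies cDNA by PCR and has no molecular identifiers.

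A naive CD8+ T cell is a small, quiescent cell that circulates between blood and lymph nodes under transcription factors such as KLF2, LEF1 and TCF1, the protein of Tcf7. Engagement of the T cell receptor together with CD28 switches on calcium, MAP kinase and NF-kB signalling, then MYC and mTORC1, and the cell enlarges, changes its metabolism and enters a series of rapid divisions. Over the first days such cells gain cytokines, granzymes and activation receptors and lose part of the naive programme.

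The 6 libraries held 6945429 to 9700397 expected counts. Between 16210 and 16924 genes had a count at 0 h and 13694 to 14081 at 24 h, and the 100 most abundant genes held 48.3 to 49.0% and 38.2 to 39.4% of all TPM. TPM is a length-corrected share of the RNA in a library, so it gives no amount of RNA per cell, and fewer cells of a type and less RNA per cell cannot be told apart. Rn45s, a ribosomal RNA gene, took 16.2 to 17.2% of counts at 0 h and 7.39 to 9.41% at 24 h. In a principal component analysis of the 6 libraries, 1 component separated the times and held 95.3% of the variance. The next one, with 1.74%, spread the 0 h libraries of mice 1, 2 and 3. CD8 T cell markers were present in every library but moved with time, with a summed level of 7263 to 7562 TPM at 0 h and 1418 to 1548 TPM at 24 h, and all 7 were called lower. Among markers of other cells, the B cell list summed to 41.9 to 53.9 TPM at 0 h and 14.7 to 16.3 TPM at 24 h, almost all of it Cd79b (mean 48.0 and 15.1 TPM), while Cd79a, Ms4a1 and Pax5 were under 1 TPM and Ebf1 was at 0. Myeloid markers summed to 1.2 to 2.04 TPM at 0 h and 0 to 0.26 TPM at 24 h, and Cd4 was at a mean of 0.27 and 0.127 TPM.

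Most tested genes changed between 0 and 24 h. No library of the series came from cells cultured without the antibodies and IL2. The effects of antibodies, IL2 and time in culture therefore cannot be told apart. Of 23420 genes, 11470 passed the filter on low counts, and 8749 of these (76.3%) were called by edgeR's quasi-likelihood test at a Benjamini-Hochberg adjusted p under 0.05. The calls were near balance, with 4280 genes (37.3%) higher and 4469 (39.0%) lower at 24 h, and 2635 (23.0%) and 2869 (25.0%) changed at least 2-fold in these directions. Of the rises, 220 were 32-fold or more, and of the falls 107. The libraries of the 2 times did not overlap for 9086 genes (79.2%), of which 4465 (38.9%) were higher and 4621 (40.3%) lower at 24 h. Among the genes called at least 2-fold the 3 mice moved in 1 direction for 99.7% of those higher and 99.1% of those lower. These genes were selected with the same libraries, so this agreement is largely built in and is no separate check. Genes called higher held 24.1% of all TPM at 0 h and 54.8% at 24 h, while genes called lower held 62.2% and 32.4%. With calls this common, a count of called members in a gene group is read against these shares, and the median log2 fold change over all tested genes was −0.07. The plot of all tested genes shows the breadth of the change. The scaling between libraries (TMM) sets the middle of the changes near 0, so the near balance partly follows from it. With upper-quartile scaling 3926 genes were called higher and 4865 lower.

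**Figure D1:**
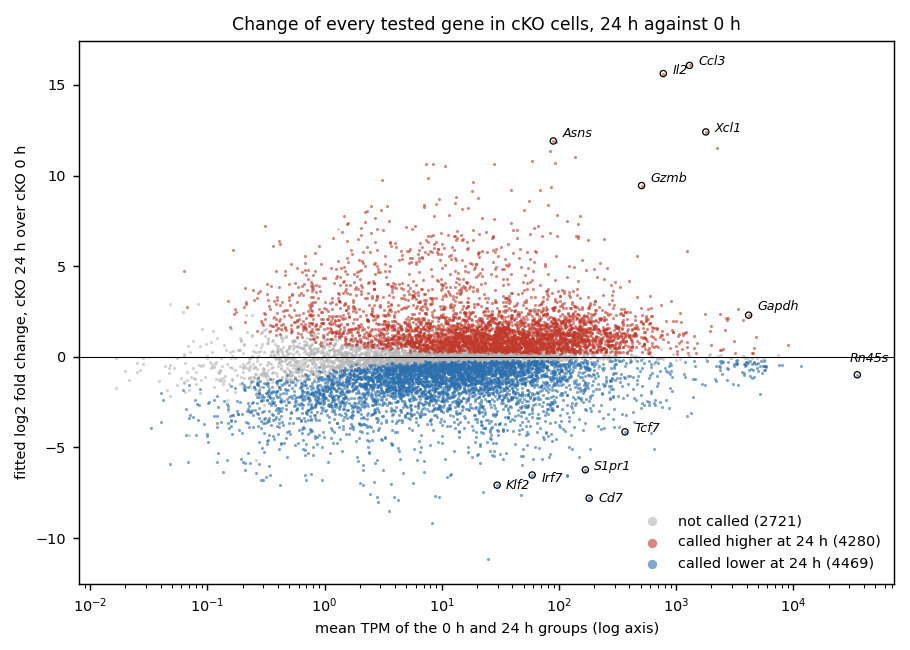
Each point is 1 of 11470 tested genes, with its mean TPM over the 0 h and 24 h cKO groups on a log axis and its fitted log2 fold change of 24 h over 0 h. Red points (4280) were called higher, blue points (4469) lower and grey points were not called. Il2 and Ccl3 had no count at 0 h, so their height depends on the model's prior count.

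Genes that keep T cells naive and guide them to lymph nodes fell together. Of 29 tested members of this list 27 were called lower, 24 of them at least 2-fold, and 1 was called higher, with a median log2 fold change of −2.88. S1pr1, the receptor through which T cells leave lymph nodes (chromosome 3, 115710433 to 115715072, minus strand), went from 308, 331 and 358 TPM in mice 1, 2 and 3 to 5.5, 3.74 and 3.33 TPM. Every 24 h library lay far under every 0 h library, a fitted log2 change of −6.23 (SE 0.221, adjusted p = 5.59e-16). Klf2, the factor that drives this gene, went from 52.6, 59.6 and 64.7 to 0.52, 0.46 and 0.2 TPM (−7.08 (SE 0.292)). The fall of Ccr7, the lymph node chemokine receptor, was the smallest of these and not steady over time, with means of 995, 478, 334 and 616 TPM at 0, 4, 8 and 24 h (24 h over 0 h −0.61 (SE 0.0787)). The single riser was Bach2, a repressor of effector differentiation, going from 11.4, 12.7 and 11.4 to 17.8, 18.8 and 17.0 TPM (0.67 (SE 0.0974)).

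Tcf7 itself was among the deep falls. Its gene-level RNA (chromosome 11, 52252371 to 52283014, minus strand) was at 685, 681 and 719 TPM at 0 h, 263, 251 and 271 at 4 h, 127, 73.6 and 108 at 8 h and 37.5, 35.7 and 38.3 at 24 h in mice 1, 2 and 3, a fitted log2 change over 24 h of −4.14 (SE 0.135, adjusted p = 1.23e-21). The groups did not overlap. These counts cover the whole gene, floxed part or not, so neither the level at 0 h nor the fall checks the deletion. Lef1, the partner factor of TCF1, went from 479, 529 and 543 to 76.0, 71.0 and 68.7 TPM (−2.88 (SE 0.11)). In the list of TCF, LEF and Wnt target genes 14 of 17 were called lower and 0 higher (median −1.25), among them the co-repressor Tle4, from 13.3 ± 1.55 to 2.65 ± 0.359 TPM (means ± SD, n = 3 mice, as in all values of this form).

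Quiescence genes and several brakes on growth fell as well. All 8 tested GIMAP genes, GTPases of lymphocyte survival, were called lower (median −2.61), Gimap6 from 880.2 ± 47.6 to 119 ± 8.92 TPM. In the list of mRNA decay, BTG/TOB and quiescence genes 20 of 33 were called lower and 5 higher. Tsc22d3, the glucocorticoid-induced leucine zipper, was at 215, 402 and 261 TPM at 0 h, where mouse 2 stood highest, and at 5.37, 6.55 and 6.33 TPM at 24 h (−5.50 (SE 0.264)). Pdcd4, an inhibitor of translation initiation, went from 155 ± 9.92 to 11.5 ± 1.21 TPM and Slfn1, a schlafen of quiescent T cells, from 212 ± 43.4 to 11.7 ± 4.71 TPM. Pik3ip1, which restrains PI3 kinase, went from 157, 156 and 171 to 4.44, 2.23 and 3.52 TPM (−5.50 (SE 0.178)). The list of mTORC1 and nutrient sensing is not one of brakes alone. Of its 22 tested genes 14 (63.6%, against 39.0% of all tested genes) were called lower and 5 higher (median −0.53). At least 2-fold lower were 6 (27.3%), against 25.0% of all tested genes. The exception of that list by size was Eif4ebp1, a translational repressor that mTORC1 inactivates, which went from 14.6, 18.3 and 20.6 to 419, 521 and 553 TPM (4.89 (SE 0.15)).

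RNA of the T cell receptor machinery was lower at 24 h. Of 27 tested genes of the receptor complex and its proximal signalling 23 were called lower and 3 higher (median −1.39). Cd8b1, a chain of the CD8 co-receptor, went from 2444, 2368 and 2389.5 TPM to 297, 256 and 241 TPM (−3.10 (SE 0.0878)), and its partner Cd8a from 407, 416 and 391 to 157, 155 and 149 TPM (−1.31 (SE 0.0844)). These groups were far apart, and the fall of Cd8b1 was the larger of the pair. Cd3e went from 379.5 ± 8.78 to 89.6 ± 0.602 TPM and the adhesion receptor Cd2 from 618 ± 52.7 to 66.8 ± 3.63 TPM. The 3 risers were activation markers or a receptor that dampens signalling. Cd44, an adhesion receptor of activated and memory T cells, went from 2.04, 1.19 and 1.92 to 63.5, 71.6 and 66.9 TPM (5.38 (SE 0.147)). Cd69, which holds activated cells in the lymph node, was at means of 168, 1888, 939.6 and 380 TPM over the 4 times (1.26 (SE 0.121) at 24 h), and the attenuator Cd5 went from 217 ± 4.34 to 329 ± 9.62 TPM.

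Among 33 genes of cytokine receptors and JAK-STAT signalling 11 (33.3%) were called higher and 18 (54.5%) lower (median −0.66). The shares of all tested genes were 37.3% and 39.0%. Il2ra, the high-affinity chain of the IL2 receptor, went from 0.28, 0.66 and 0.51 TPM to 77.8, 80.7 and 72.4 TPM (7.40 (SE 0.174, adjusted p = 9.31e-29)). Il7r, the IL7 receptor chain that sustains naive cells, moved the other way, from 270.2, 242 and 241 to 10.1, 5.93 and 4.91 TPM (−5.10 (SE 0.279, adjusted p = 1.23e-11)). Neither pair of groups overlapped. Il6ra (32.6 to 0.973 TPM) fell and Il12rb1, a chain of the IL12 receptor, rose from 6.5 ± 3.2 to 73.4 ± 4.82 TPM, while the shared chain Il2rb rose by a log2 of only 0.35 (SE 0.0864). Of the STAT5-induced and STAT3-induced inhibitors of cytokine signalling, Cish rose from 8.52 ± 3.81 to 130.3 ± 5.52 TPM and Socs3 fell from 49.4 ± 9.0 to 5.32 ± 0.379 TPM.

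Transcription factors of early activation split in direction at 24 h, and some had been higher before. Of 24 immediate early genes 13 (54.2%) were called higher and 8 (33.3%) lower, against 37.3% and 39.0% of all tested genes. Nr4a1, an orphan nuclear receptor induced by T cell receptor signals, was at means of 13.8, 1734, 714 and 144 TPM at 0, 4, 8 and 24 h (3.46 (SE 0.158) at 24 h), and Egr2 at 3.79, 206, 141 and 30.0 TPM (3.03 (SE 0.147)). Fosl1, an AP-1 subunit, had no count in the 0 h libraries and was at 15.7, 16.4 and 13.5 TPM at 24 h, at least 139-fold higher when the 0 h group is set to a floor of 3 counts. The classical AP-1 pair fell, Fos from 57.7, 57.1 and 57.1 to 5.31, 4.15 and 3.27 TPM (−3.68 (SE 0.182)) and Jun from 60.5 ± 5.75 to 21.0 ± 0.321 TPM, as did Dusp1, a phosphatase of MAP kinases, and Zfp36, which destabilises cytokine mRNAs (−3.10).

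Of 25 fate and effector factors 12 (48.0%) were called higher and 11 (44.0%) lower, against 37.3% and 39.0% of all tested genes, so the list moved in both directions. Tbx21, encoding T-bet, went from 2.8, 5.08 and 2.99 TPM to 109, 106 and 101 TPM (4.92 (SE 0.391, adjusted p = 3.05e-09)). Irf4, which scales with the strength of the receptor signal, went from 0.77, 3.39 and 1.81 to 103, 108 and 104 TPM (5.79 (SE 0.286)), after a mean of 371 TPM at 4 h. Irf8 rose from 1.35 ± 1.67 to 301 ± 15.0 TPM and Bhlhe40, a factor needed for cytokine production, from 0.58 ± 0.278 to 54.0 ± 1.23 TPM. Batf3, a partner of AP-1 factors, had no count at 0 h, was still at a mean of 0.443 TPM at 8 h, and reached 14.1, 14.0 and 14.3 TPM at 24 h, at least 48.9-fold higher. Eomes, the T-box relative of T-bet, was not called, going from 9.27, 3.12 and 6.3 to 6.14, 2.24 and 2.04 TPM (−0.77 (SE 0.39, adjusted p = 0.0771)), and its groups overlapped. It was lower at 24 h within each of the 3 mice and was called lower with the replicate block (−0.80, adjusted p = 0.00561), with upper-quartile scaling (0.0395), without a filter (0.0153), without mouse 1 (−1.01, adjusted p = 0.00974) and in limma on log2(TPM + 1) (0.0403). Klf2, Tcf7 and Klf3 were the largest falls of the list by the rule for named genes.

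Cytokine and chemokine RNAs were switched on. Il2, the growth factor of T cells (chromosome 3, 37120523 to 37125959, minus strand), had no count in any of the 3 libraries at 0 h and was at 1717, 1476 and 1468 TPM at 24 h, at least 7438-fold higher. Ifng, the interferon of type 1 responses, had 2 counts at 0 h over the 3 libraries and was at 330, 215 and 276 TPM at 24 h, a ratio of 2559.5 (95% counting interval 708 to 21140.2). Il3, a growth factor of myeloid cells, had 1 count at 0 h and was at 209.5, 202 and 148 TPM at 24 h, a ratio of 2376 (95% counting interval 426 to 93867). Tnf went from 8.71, 8.22 and 6.22 to 317, 309 and 287 TPM (5.36 (SE 0.154)). In the list of secreted cytokines 12 of 15 tested genes were called higher and 2 lower (median 4.77), and 9 further listed genes did not pass the filter. The lower ones were Il16, a chemoattractant of CD4+ cells (154 ± 19.2 to 25.2 ± 1.51 TPM), and Ltb, the lymphotoxin subunit that shapes lymphoid tissue (586, 857 and 1051 to 212, 168 and 159 TPM).

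Several chemokines rose from levels at or near 0. Ccl4 went from 2.09, 1.23 and 1.25 to 5008, 4249 and 4023 TPM (11.50 (SE 0.275)), and Xcl1, the ligand of cross-presenting dendritic cells, from 0, 1.28 and 0.58 to 4103, 3626 and 3019 TPM (12.41 (SE 0.315)). Ccl3 had no count at 0 h and was at 2974, 2559.8 and 2276 TPM at 24 h, at least 10156-fold higher. Their means at 8 h were higher still, with Ccl4 at 21965, Xcl1 at 15621 and Ccl3 at 8102 TPM. Ccl1 was at 0 in the 0 h libraries and at 254, 163 and 83.2 TPM in mice 1, 2 and 3 at 24 h, the widest spread of these genes. Ccl5, a chemokine of memory and effector cells, was the 1 of 8 tested chemokines called lower. It was at 479, 228 and 206 TPM at 0 h, highest in mouse 1, and at 18.7, 16.2 and 17.9 TPM at 24 h (−4.05 (SE 0.497, adjusted p = 9.56e-07)). The median of the 8 was 9.0, or 7.62 with the genes without a count at 0 h set to their lower bound. The list held 11 genes, and the others did not pass the filter on low counts. Genes without a count at 0 h passed it through other groups and could not be seen to fall, which lifts the median.

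Receptors of co-stimulation and inhibition appeared side by side. Of 28 tested members 19 were called higher and 5 lower (median 0.92). Among the co-stimulatory receptors of the TNF receptor family, Tnfrsf4, encoding OX40, went from 5.08, 2.6 and 4.91 to 357, 364 and 331 TPM (6.47 (SE 0.192)) and Tnfrsf9, encoding 4-1BB, from 6.23, 4.57 and 2.5 to 130.2, 111 and 102 TPM (4.71 (SE 0.206)). Cd27, a co-stimulator of naive cells, fell from 325 ± 18.8 to 110.2 ± 5.78 TPM, while its ligand Cd70 had no count at 0 h and was at 55.9 ± 6.31 TPM at 24 h, at least 235-fold higher. Of the inhibitory receptors, Lag3 went from 0.36, 0.18 and 0.13 to 129.8, 147 and 138 TPM (9.23 (SE 0.279)), Pdcd1, encoding PD-1, from 2.2, 1.87 and 0.26 to 81.7, 79.0 and 77.5 TPM (5.74 (SE 0.262)), and Ctla4 from 1.37, 1.59 and 0.39 to 26.1, 34.4 and 30.4 TPM (4.75 (SE 0.391)). Lag3 was still at 1.18 TPM at 4 h, when Pdcd1 was at 81.1 TPM. Cd96, an inhibitory receptor of resting T cells, fell from 191 ± 16.3 to 42.1 ± 5.43 TPM. The other 3 falls were in genes with means under 10 TPM, Lair1, Cd200r1 and Cd86, which encodes a ligand of CD28.

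Cd28, whose protein the series title names, went from 24.1, 29.5 and 23.9 TPM to 32.6, 34.1 and 43.0 TPM, a fitted log2 change of 0.58 (SE 0.173, adjusted p = 0.00448). The groups did not overlap, yet the lowest 24 h and the highest 0 h library lay close, and without mouse 3 the call was lost (adjusted p = 0.094). Cxcr6, the receptor of CXCL16 (chromosome 9, 123806475 to 123811760, plus strand), was at 432, 395 and 362 TPM at 0 h, 268, 255 and 261 at 4 h, 252, 238 and 228 at 8 h and 57.5, 45.5 and 39.5 at 24 h, a fitted log2 change over 24 h of −2.98 (SE 0.135, adjusted p = 4.78e-18). Most of its fall came after 8 h. Of 11 tested chemokine receptors 5 (45.5%) were called higher and 5 (45.5%) lower, against 37.3% and 39.0% of all tested genes. Their median was 0.05, and −0.08 under upper-quartile scaling. Ccr9, which guides cells to the gut, went from 96.2 ± 11.4 to 1.43 ± 0.269 TPM and Ccr4 from 1.04 ± 0.569 to 22.3 ± 1.25 TPM. Cxcr3, the receptor of interferon-induced chemokines, was at 42.5, 17.2 and 13.2 TPM at 0 h, highest in mouse 1, and at 61.8, 65.2 and 59.5 TPM at 24 h (1.40 (SE 0.395, adjusted p = 0.004)). Its call was lost without mouse 2 (adjusted p = 0.0595) and with only the 2 groups in the fit (adjusted p = 0.0571).

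Cytotoxic genes did not move as a block. Gzmb, a serine protease of the cytotoxic granule (chromosome 14, 56258838 to 56262260, minus strand), went from 1.91, 1.69 and 0.72 TPM to 1241, 885 and 911 TPM, a fitted log2 change of 9.45 (SE 0.28, adjusted p = 4.02e-17). Gzmc was at means of 0.163, 199, 314 and 19.6 TPM over the 4 times, so that most of its RNA was gone again by 24 h, and Serpinb9, the inhibitor that shields the cell from granzyme B, went from 14.0 ± 3.81 to 384 ± 38.4 TPM. Prf1, the pore-forming perforin, moved the other way, from 99.6, 90.5 and 95.9 to 57.7, 45.4 and 32.0 TPM (−1.0 (SE 0.191)). Unc13d, which primes granules for release, fell from 56.9 ± 5.72 to 19.0 ± 2.68 TPM, the granule cathepsin Ctsw from 674 ± 81.9 to 70.0 ± 10.2 TPM, and the death ligand Fasl from 13.1 ± 2.15 to 4.87 ± 0.384 TPM. Of 22 listed genes 16 were tested. Of these, 9 (56.2%) were called higher and 7 (43.8%) lower, against 37.3% and 39.0% of all tested genes. The median log2 fold change of the tested genes was 0.33. The granzymes are near copies of each other in 1 gene cluster, and reads that they share could be split between them by the counting.

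**Figure D2:**
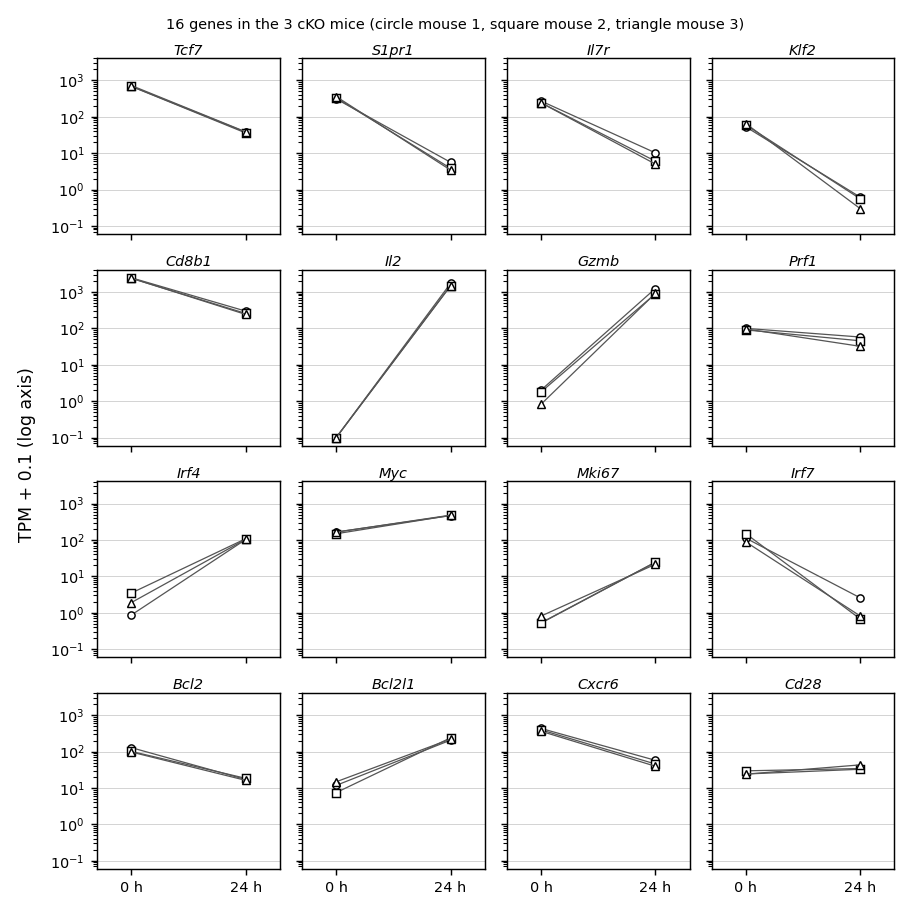
TPM + 0.1 on a log axis in the 0 h and 24 h libraries of cKO mice 1 (circles), 2 (squares) and 3 (triangles), joined within a mouse, for 16 genes of the naive, effector, growth and survival programmes. All 3 lines of a gene run in the same direction, steeply down for Klf2 and steeply up for Il2 and Gzmb, and close to level for Cd28.

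The machinery that makes ribosomes rose almost without exception. All 39 tested ribosome biogenesis genes were called higher, 35 of them at least 2-fold (median 1.63), and their summed level was 4158 to 4524 TPM at 0 h and 14696 to 14962 TPM at 24 h. Ncl, encoding the nucleolar protein nucleolin, went from 122, 122 and 116 to 607, 625 and 616 TPM (2.45 (SE 0.0843)), and Fbl, the rRNA methyltransferase fibrillarin, from 45.1 ± 2.17 to 212 ± 17.5 TPM. Myc, a factor known to promote ribosome biogenesis, was at means of 159, 1139.5, 925 and 473 TPM (1.66 (SE 0.0967) at 24 h). Its part in the rise was not tested. The proteins of the cytosolic ribosome did not follow. Of 84 tested genes 51 were called lower and 14 higher, mostly by less than 2-fold (median −0.30), and their share of all TPM fell, from 328368 to 342755 to 251716 to 262765 TPM in sum. Within them Rps2 went from 809, 977 and 1126 to 6065, 5882 and 5358 TPM and Rpl30 from 107 ± 23.1 to 568 ± 41.3 TPM, while Rps27 went from 9679, 6798 and 8874 to 1552, 2404 and 2027 TPM. Many of these genes have processed pseudogenes that can share their reads, so single values are uncertain.

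Other parts of protein synthesis rose. Of 75 tested mitochondrial ribosomal proteins 71 were called higher and 0 lower (median 1.12), for example Mrps6, from 68.7 ± 1.97 to 394 ± 6.69 TPM. Of 20 tested aminoacyl-tRNA synthetases, which load tRNAs, 19 were called higher and 0 lower (median 1.82), Cars from 17.3 ± 1.77 to 123 ± 5.54 TPM. Of 60 tested genes listed by translation factor symbols 42 were called higher and 8 lower. The symbols also took in the kinases Eif2ak1 to Eif2ak4 and Eef2k, the Argonaute genes Eif2c1 to Eif2c3, and Eef1e1. Eif2s2, a subunit of the factor that brings initiator tRNA, went from 94.7 ± 7.57 to 456 ± 23.6 TPM, while Eef1a1, the elongation factor and 1 of the most abundant RNAs, fell from 13926 ± 452 to 9444 ± 186 TPM (−0.48 (SE 0.0627)) and the helicase Eif4a2 from 394 ± 18.4 to 202 ± 5.18 TPM. Splicing factors gave 37 rises and 5 falls among 51 (median 0.85), Snrpd1, a core snRNP protein, from 116 ± 9.77 to 619.7 ± 6.7 TPM.

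Metabolic genes rose, and the list that includes serine, one-carbon and amino acid synthesis had the largest median of the metabolic lists. In it 24 of 25 tested genes were called higher (median 2.86). The list also holds Odc1, Srm and Sms of polyamine synthesis and the stress-response genes Atf4, Ddit3, Chac1, Trib3 and Sesn2. Asns, the asparagine synthetase, had 1 count at 0 h over the 3 libraries and was at 152, 197 and 189 TPM at 24 h, a ratio of 5624 (95% counting interval 1009 to 222177). Its level was still 1.08 TPM at 4 h and 5.01 TPM at 8 h. Cth, which makes cysteine, had 1 count as well and reached 156, 197 and 206 TPM, a ratio of 5436 (95% counting interval 975 to 214739), and Chac1, which degrades glutathione, went from 0.193 ± 0.178 to 44.0 ± 13.3 TPM. The mitochondrial one-carbon enzyme Mthfd2 went from 38.9, 33.3 and 33.1 to 495, 553 and 532 TPM (3.98 (SE 0.144)) and Shmt2 from 127 ± 8.63 to 674 ± 21.3 TPM. Ddit3, encoding the stress factor CHOP, was the 1 member called lower, from 36.9, 43.4 and 39.9 to 14.7, 17.1 and 16.9 TPM (−1.23 (SE 0.194)). Among nutrient transporters 19 of 20 were called higher and 1, the phosphate carrier Slc20a1 (−0.85), lower. Slc7a5, the light chain of the leucine transporter, went from 1.82 ± 0.594 to 16.0 ± 1.28 TPM, its heavy chain Slc3a2 from 137 ± 8.43 to 278 ± 6.45 TPM, and Tfrc, the transferrin receptor for iron, from 18.9, 10.9 and 13.8 to 156, 163 and 158 TPM (3.53 (SE 0.165)).

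Most genes of glycolysis and of respiration rose. Of 20 tested genes of glycolysis and lactate 17 were called higher, 13 at least 2-fold, and 3 lower (median 1.45). Gapdh went from 1531, 1465 and 1403 to 6758, 7051 and 6733 TPM (2.30 (SE 0.0863)) and Ldha, which turns pyruvate into lactate, from 1034, 1091 and 953 to 4317, 4343 and 4201 TPM (2.14 (SE 0.095)). Of the hexokinases, Hk2 went from 0.71, 0.28 and 0.26 to 24.6, 24.9 and 25.8 TPM. Hk1 was called lower, from 11.4 ± 0.535 to 8.02 ± 0.248 TPM (−0.43 (SE 0.176, adjusted p = 0.0259)), but the call was lost without mouse 1, 2 or 3 (adjusted p = 0.0678, 0.141 and 0.132), with total-count scaling (0.0508), without a filter (0.0634) and in limma on log2(TPM + 0.1) (0.0628). Of the glucose transporters, Slc2a1 rose from 16.1 ± 1.81 to 30.5 ± 0.9 TPM and Slc2a3 fell from 22.7 ± 3.31 to 12.1 ± 1.4 TPM, as did Pdk1, which restrains entry of pyruvate into mitochondria (44.5 ± 7.59 to 22.7 ± 2.69 TPM). In the tricarboxylic acid cycle 25 of 29 were called higher and 9 rose at least 2-fold (median 0.61). Among 70 genes listed by symbol as subunits of oxidative phosphorylation 58 were called higher and 17 rose at least 2-fold (median 0.67). The symbols also took in Atp5sl, which is not a subunit. The difference between the medians of these lists was not tested. Sterol and fatty acid synthesis gave 19 rises and 4 falls among 28, with the isoprenoid enzyme Idi1 going from 17.4 ± 1.9 to 204 ± 8.8 TPM and the factor Srebf1 falling from 44.8 ± 2.75 to 20.4 ± 1.01 TPM.

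Cell division genes rose without exception in the lists of DNA replication and mitosis. All 36 tested DNA replication genes were called higher (median 2.70) and all 35 mitosis genes, each at least 2-fold (median 4.98). The mitosis genes summed to only 105 to 137 TPM at 0 h and so had little room to fall. Any gene without a count at 0 h passed the filter through other groups and could not be seen to fall, which lifts such counts and medians. Mcm5, a subunit of the replicative helicase, went from 47.4, 48.9 and 40.0 TPM to 349.9, 374 and 352 TPM (3.06 (SE 0.11, adjusted p = 8.84e-24)). Rrm2, the ribonucleotide reductase subunit that supplies DNA precursors, went from 8.29, 3.37 and 4.77 to 489.7, 497 and 448 TPM (6.50 (SE 0.322)), and 25 of 28 genes of nucleotide synthesis were called higher and 1, Ctps2, lower. Mki67, the common marker of cycling cells, went from 0.42, 0.43 and 0.71 to 24.2, 24.4 and 21.4 TPM (5.61 (SE 0.276)), and Ccnb1, the cyclin of mitotic entry, from 2.19, 0.69 and 1.6 to 167, 143 and 117 TPM (6.64 (SE 0.298)). Ttk, a kinase of the spindle checkpoint, had no count at 0 h and was at 13.6, 14.6 and 15.8 TPM at 24 h, at least 233-fold higher. Among the regulators of G1, Ccne1 rose from 23.4 ± 2.58 to 133 ± 14.5 TPM, and of the inhibitors Cdkn1b, encoding p27, fell from 21.3, 26.6 and 24.4 to 3.74, 3.74 and 4.09 TPM (−2.56 (SE 0.167)), while Cdkn1a, encoding p21, had no count at 0 h and was at 22.9, 19.4 and 21.7 TPM at 24 h, at least 219-fold higher.

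Promoter letters of these genes were searched for motifs of the factors that are known to drive growth and division. The searched window was the 250 bases upstream of the first listed start of each gene, in RefSeq's annotation of GRCm38.p6, on both strands, and 8546 tested genes matched by symbol. The E2F motif TTGGCGC was in 4.74% of 1960 promoters of genes called at least 2-fold higher, in 2.74% of 2077 promoters of genes called at least 2-fold lower and in 3.67% of all 8546. The E-box CACGTG, which MYC and related factors bind, was in 9.8%, 7.46% and 8.64% of these promoters. These shares are descriptions and differ by little. The other motifs searched, each given with its share among the same 3 sets in the same order, were AP-1 TGACTCA (2.76%, 3.32% and 2.93%), CRE TGACGTC (5.1%, 3.8% and 5.14%), the NFAT core GGAAAA (18.6%, 18.4% and 18.7%), TCF/LEF ATCAAAG (2.19%, 2.41% and 2.19%), FOXO TGTTTAC (2.14%, 2.36% and 2.09%) and KLF GGGTGTG (6.73%, 7.9% and 7.09%). None of these motifs contains another. The 3 sequences show what such matches look like, with E2F matches in capitals in Mcm5 and Ncl and E-box matches in capitals in Ldha. They were picked from genes of replication, ribosome biogenesis and lactate production that rose. All 3 also hold matches to the CRE motif, left in lower case. Genes that fell held matches as well, such as Tle4 and Il6ra for the E-box and Dusp1 for both motifs.
Mcm5 (chr8:75109259-75109508, plus strand): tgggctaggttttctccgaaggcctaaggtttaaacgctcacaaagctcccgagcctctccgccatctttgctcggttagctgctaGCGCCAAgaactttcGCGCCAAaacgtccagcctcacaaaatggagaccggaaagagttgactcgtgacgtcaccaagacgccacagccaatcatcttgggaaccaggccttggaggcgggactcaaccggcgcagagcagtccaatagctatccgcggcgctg
Ncl (chr1:86359456-86359705, minus strand): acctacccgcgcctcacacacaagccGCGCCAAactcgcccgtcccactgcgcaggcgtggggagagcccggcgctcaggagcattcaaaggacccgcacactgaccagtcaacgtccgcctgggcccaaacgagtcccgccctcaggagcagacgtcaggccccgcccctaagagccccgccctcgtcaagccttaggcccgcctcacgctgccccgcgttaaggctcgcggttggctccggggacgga
Ldha (chr7:46845554-46845803, plus strand): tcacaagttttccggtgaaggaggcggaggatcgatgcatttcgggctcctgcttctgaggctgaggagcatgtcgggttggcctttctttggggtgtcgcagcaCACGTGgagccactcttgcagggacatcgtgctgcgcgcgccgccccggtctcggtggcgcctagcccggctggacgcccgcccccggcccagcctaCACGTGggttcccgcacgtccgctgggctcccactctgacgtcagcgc
Mcm5 held 2 matches to the E2F motif, Ncl held 1, and Ldha held 2 E-boxes. A match is no evidence that a factor was bound there.

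Of 23 genes of the BCL2 family and cell death 11 (47.8%) were called higher and 8 (34.8%) lower, against 37.3% and 39.0% of all tested genes. Bcl2, which keeps naive T cells alive, went from 128, 101 and 97.0 TPM to 17.0, 18.3 and 16.1 TPM (−2.28 (SE 0.181)), and its relative Bcl2l1, encoding BCL-XL, went from 11.7, 7.37 and 14.7 to 206, 238 and 220 TPM (4.40 (SE 0.164)). Bcl2a1b went from 12.5 ± 1.32 to 437 ± 14.5 TPM and Bcl2a1d from 3.41 ± 1.78 to 288 ± 19.3 TPM, though these copies of A1 are nearly identical and the split between them is uncertain. Of the BH3-only killers, Pmaip1 fell from 16.7 ± 2.5 to 3.93 ± 0.375 TPM and Bcl2l11, encoding BIM, from 12.3 ± 0.144 to 7.6 ± 0.592 TPM.

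Most chaperone and proteasome genes rose, and most lysosome and autophagy genes fell. Of 30 chaperones 26 were called higher, among them the mitochondrial chaperonin Hspd1 (194, 210.5 and 187 to 1587, 1597 and 1602 TPM), and 3, the heat-shock genes Hspa1a, Hspa1b and Dnajb1, lower. Hspa1a and Hspa1b had means under 10 TPM and their libraries of the 2 times overlapped. Dnajb1, a co-chaperone, was at 76.4, 170 and 169 TPM at 0 h, lowest in mouse 1, and at 60.4, 58.4 and 52.9 TPM at 24 h. Of 47 proteasome genes 39 were called higher, such as the lid subunit Psmd3 (36.1 ± 8.75 to 236 ± 12.8 TPM), and 4 lower. The lower ones were interferon-inducible forms, the immunoproteasome subunits Psmb10 (249 ± 41.3 to 66.2 ± 6.79 TPM) and Psmb8 (1053 ± 144 to 696 ± 61.6 TPM) and the activator Psme1 (1012 ± 143 to 757 ± 11.2 TPM), beside Psmb11, a thymic subunit at a low level. These 4 were the only members of the list called lower, so a fall of interferon-inducible forms as a class is not shown. The call of Psme1 was lost without mouse 2 (−0.19, adjusted p = 0.0798). In the list of ER folding and the unfolded protein response 17 of 25 were called higher and 5 lower. Lysosome and autophagy genes gave 21 falls and 4 rises among 31 (median −0.83), with the membrane protein Lamp1 among the rises, going from 16.5 ± 3.16 to 74.8 ± 17.1 TPM.

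Most interferon-stimulated genes fell. Of 30 tested members 27 were called lower, 26 at least 2-fold, and 0 higher (median −3.23, and −2.93, −3.73 and −2.80 in mice 1, 2 and 3). Irf7, the factor that amplifies interferon responses, went from 112, 149 and 88.2 TPM to 2.48, 0.58 and 0.72 TPM (−6.52 (SE 0.271, adjusted p = 6.85e-17)). Oasl2, a relative of the antiviral oligoadenylate synthetases, went from 19.4, 36.7 and 14.6 to 0.47, 0.16 and 0.11 TPM (−6.49 (SE 0.463)). Cmpk2, a nucleotide kinase of the interferon response, fell from 14.1, 23.9 and 11.2 TPM to 1 count over the 3 libraries, a ratio of 0 h over 24 h of 869 (95% counting interval 156 to 34357). Mouse 2 stood highest at 0 h in all 3 genes, and the list summed to 2707, 4272 and 2151 TPM at 0 h in mice 1, 2 and 3 and to 955, 847 and 773 TPM at 24 h, so the times did not overlap. Class I presentation fell too, with 14 of 17 called lower and 0 higher (median −1.26), for example H2-Q4, a class Ib gene, from 141 ± 5.61 to 28.9 ± 3.7 TPM. The H2-Q genes are close copies whose reads can be split between them. Outside these lists the deepest falls named by size included Cd7, a co-receptor of T cells (352, 342 and 390.5 to 1.72, 1.53 and 1.28 TPM, −7.80 (SE 0.292)), Ggt1, which breaks down glutathione (97.1, 109 and 79.3 to 0.37, 0.41 and 0.54 TPM), Ampd1, an AMP deaminase (39.2, 49.6 and 45.2 to 0.32, 0.07 and 0.31 TPM), and Hsd11b1, which activates glucocorticoids (257, 226 and 213 to 2.4, 3.2 and 1.38 TPM).

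**Figure D3:**
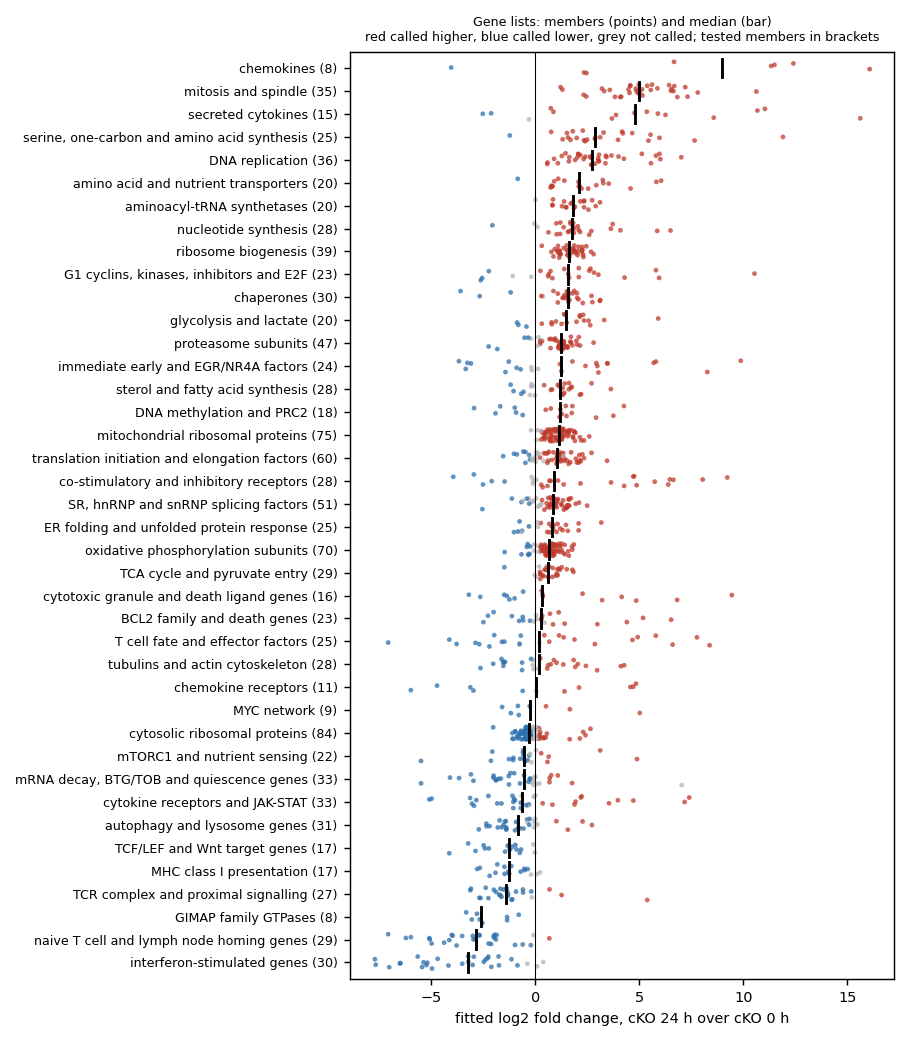
Fitted log2 fold changes of cKO 24 h over cKO 0 h for the tested members of 40 gene lists, with the median of each list as a bar and lists ordered by it. Mitosis, DNA replication and ribosome biogenesis hold red points alone, interferon-stimulated and GIMAP genes no red point, and cytotoxic, fate and survival genes points on both sides of 0. Points of genes without a count at 0 h depend on the model's prior count.

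The 4 h and 8 h libraries of the same mice show when these end points were reached. Of the 2635 genes called at least 2-fold higher at 24 h, 77.2% had their highest mean TPM at 24 h, 18.1% at 8 h and 4.74% at 4 h. On the log2(TPM + 1) scale, 35.9% had passed the midpoint of the rise by 4 h, a further 28.1% by 8 h, and 35.9% passed it after 8 h. Of the 2869 genes called at least 2-fold lower 84.2% had their lowest mean at 24 h. Both sets were selected with the same 24 h libraries, so an extreme at 24 h is favoured by the selection. Genes that changed at 4 or 8 h and were back near their 0 h level by 24 h are not among them. Chemokines summed to 35903 TPM at 4 h, 46176 TPM at 8 h and 9485 to 12434 TPM at 24 h, so their RNA had receded. Ribosome biogenesis genes had reached 14293 TPM at 8 h, near their 24 h level. DNA replication genes were at 1545 TPM at 8 h against 1337 to 1475 TPM at 0 h and 6959 to 7120.1 TPM at 24 h, and mitosis genes at 86.8 TPM against 105 to 137 and 2499 to 2959 TPM. Both division lists rose between 8 and 24 h.

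**Figure D4:**
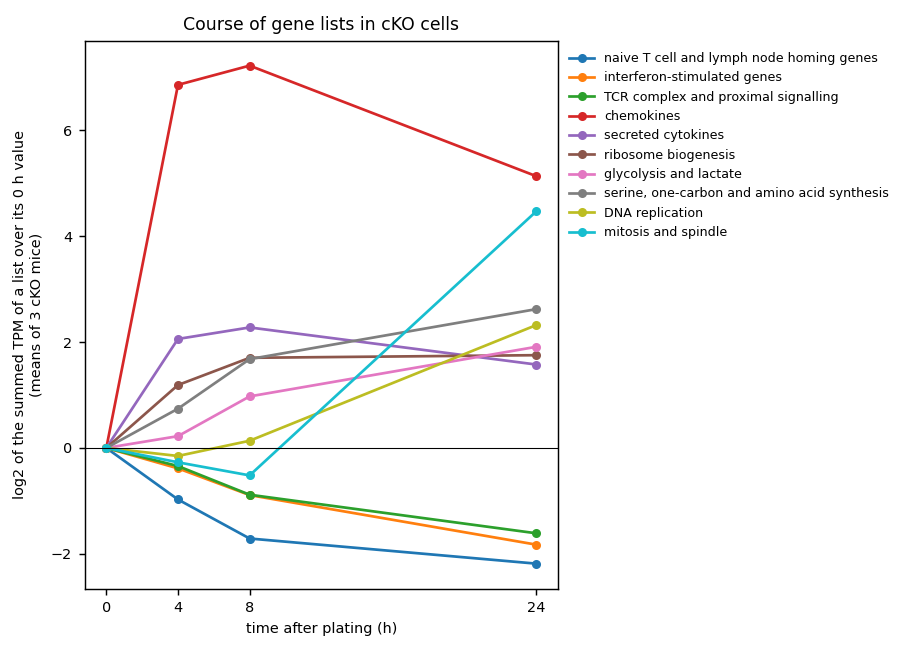
Summed TPM of 10 gene lists at 0, 4, 8 and 24 h in cKO cells, as log2 of the mean of 3 mice over the 0 h mean. Chemokines and cytokines peak at 8 h, ribosome biogenesis is flat from 8 h, and the lists of DNA replication and mitosis stay near or under 0 until 8 h and are above it at 24 h.

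The change over 24 h was compared with that of the WT mice through an interaction, the change in cKO minus the change in WT. In WT 8828 genes (77.0%) were called, 5654 (49.3%) of them at least 2-fold, and the interaction called 2 of 11470 genes (0.0174%). At an unadjusted p under 0.05 it held 492 genes (4.29%). Tcf7 fell further in the libraries labelled cKO, where the log2 change was −4.14, than in WT, where it was −2.91 (from 567, 552 and 499 to 62.6, 77.0 and 68.8 TPM in mice 4, 5 and 6). The interaction was −1.23 (SE 0.171, adjusted p = 0.000411). This call was lost with total-count scaling (adjusted p = 0.0588), without mouse 3 (0.0916) and in limma on log2(TPM + 0.1) (0.0554). Dennd5a, a regulator of RAB GTPases in vesicle traffic, rose less in cKO, from 9.76, 8.05 and 8.2 to 26.8, 23.6 and 23.0 TPM, than in WT, from 1.21, 0.99 and 2.74 to 15.5, 15.7 and 14.4 TPM. Its interaction was −1.69 (SE 0.237, adjusted p = 0.000411), and the cKO libraries were above the WT libraries at both times.

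No further gene was called for a different change. With the mouse numbers as a block 7 genes were called in all, Tcf7 and Dennd5a among them. Cxcr6 fell from 108, 84.4 and 118 to 21.2, 16.7 and 22.5 TPM in WT (−2.32), and its interaction of −0.66 was not called (adjusted p = 0.45). Fasl went from 13.4, 15.1 and 10.8 to 4.99, 4.44 and 5.18 TPM in cKO and from 0.14, 0.11 and 0.63 to 0.47, 0.72 and 0.68 TPM in WT. Its interaction was −2.48 (SE 0.629, adjusted p = 0.369) and was not called either, with WT near the lower end of detection. For 93.8% of tested genes the 2 changes differed by less than 1 on the log2 scale.

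**Figure D5:**
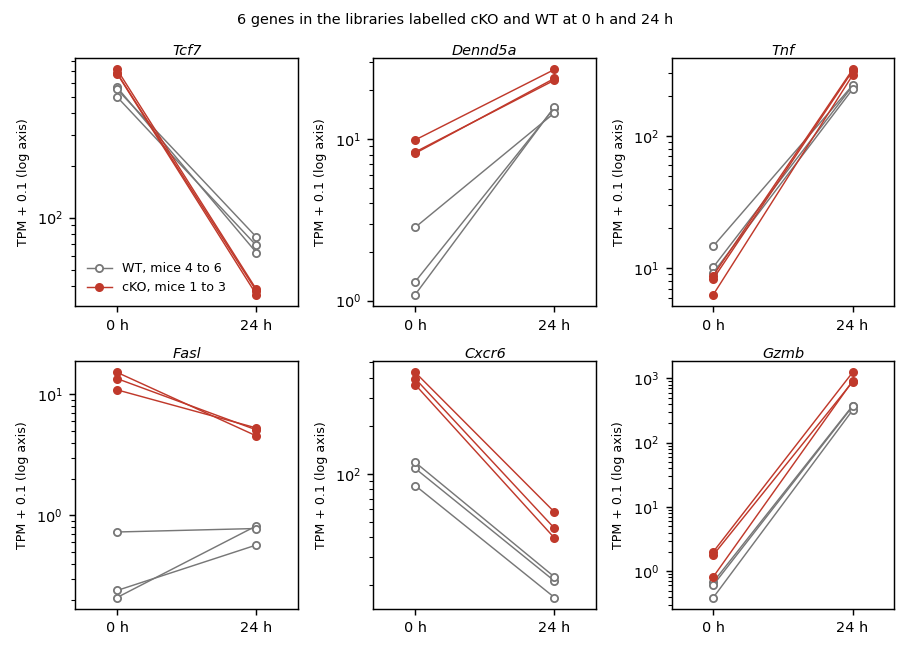
TPM + 0.1 on log axes, scaled separately per gene, in the 0 h and 24 h libraries of cKO mice 1 to 3 (filled) and WT mice 4 to 6 (open), joined within a mouse. Tcf7 starts higher and ends lower in cKO, Dennd5a starts higher in cKO with a flatter rise, and the lines of Cxcr6 and Gzmb run side by side.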

How the data were processed

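The submitters' processing notes name STAR, RSEM and DESeq2 and the build mm10, without versions or settings, and whether counting used strand is not stated in them. The deposited files give 3 values for each gene of a library, per the file headers. These are the expected count (RSEM's estimate of a gene's reads), the TPM and the FPKM, and per the file headers each file holds 1 library. Levels are TPM as deposited by the authors, and FPKM was deposited but not used. Positions come from the GENCODE M21 annotation, whose assembly GRCm38 is the same as mm10.

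Expected counts were rounded and tested with edgeR 4.0.16 in R 4.3.3. The filter on low counts over the 8 groups kept 11470 of 23420 genes. A gene without a count in cKO at 0 h passed it through other groups, so it could not be seen to fall. After TMM scaling, a robust quasi-likelihood fit with 8 group means over 24 libraries gave the contrast cKO 24 h minus cKO 0 h and the interaction with genotype. Tests are two-sided, with Benjamini-Hochberg adjustment over all tested genes in each contrast. The SE was taken from the F statistic (absolute log2 change over the root of F) and is rough near 0. The model was run on counts simulated from its own estimates of spread, in which few genes changed. That simulation does not check data in which most tested genes change. Expected counts per library bound the precision, and since reads were not collapsed to molecules, floors and intervals cover counting error only.

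Libraries with the same mouse number come from 1 animal per their titles. Their deviations from the group means over 7696 genes were not correlated (Pearson's r −0.00451, −0.0341 and 0.0212 for mice 1, 2 and 3), and the fit without the block is given.

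The comparison, the 40 gene lists and the rule for named genes were chosen with earlier results of these data known. The rule takes the 12 largest rises and 12 largest falls among called, non-overlapping genes whose higher group reaches 10 TPM, passing over unnamed gene models. It adds key members and up to 3 members in each direction per list, and Tcf7, Lef1, Cxcr6 and Cd28. Genes called in the interaction (up to 6 in each direction), the 10 most abundant at each time, up to 8 abundant genes with a 95% interval within 0.5 of 0, up to 4 without a count at 1 time, up to 6 uncalled genes highest at 4 or 8 h and up to 4 with the most spread ratios complete it. A few genes that the rule takes are not reported here, though counts, sums and medians of lists include them. Lair1, Cd200r1, Cd86, Psmb11, Hspa1a and Hspa1b were named after their values were seen. Alternatives were other scalings, filters, groups in the fit, a block for the mouse, each mouse left out, limma 3.58.1 on log2(TPM + 1) and log2(TPM + 0.1), and DESeq2 1.42.0.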

Additional observations from a re-analysis of the deposited data

Results flagged for a closer look

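Tcf7 and Dennd5a changed by different amounts over 24 h in the libraries labelled cKO and WT, by the test of the difference itself (edgeR's quasi-likelihood interaction with Benjamini-Hochberg adjustment over 11470 genes). For Tcf7 the difference was −1.23 on the log2 scale (adjusted p = 0.000411), with a change of −4.14 in cKO and −2.91 in WT. All 3 cKO mice were above all 3 WT mice at 0 h and below them at 24 h. For Dennd5a the difference was −1.69 (adjusted p = 0.000411), with changes of 1.57 and 3.26, and all 3 cKO mice were above all 3 WT mice at both times. The Tcf7 difference did not pass the threshold without mouse 3 (−1.30, adjusted p = 0.0916), with total-count scaling or in limma on log2(TPM + 0.1).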

How the results depend on the processing

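The number of genes called between 0 and 24 h in cKO ranged from 7805 to 9430 over the alternatives, with 8194 to 8218 when 1 mouse was left out, 8693 with DESeq2 and 8719 with the replicate block. The median log2 change of all tested genes was −0.07, −0.195 with upper-quartile scaling, so falls are larger and rises smaller on that scale, and −0.34 over the 22168 genes fitted without a filter. The interaction called 2 genes in the main test, 4 with upper-quartile scaling, 1 with total-count scaling, 21 without a filter on low counts, 3 with the filter of 5 CPM, 7 with only the 4 groups compared, 7 with the replicate block, 4 and 3 in limma on log2(TPM + 1) and log2(TPM + 0.1), 6 with DESeq2 and 2 to 5 when 1 mouse was left out. The cause of these differences was not tested. Over 273 named genes and their alternatives, 3731 of 3815 values kept the direction and the side of the threshold, 44 passed it newly, 30 no longer passed it and 10 turned direction. Those that turned were uncalled genes. Rpl7 (−0.01) was at 0.03 with RLE size factors and with DESeq2, 0.06 without a filter, 0.00 with the filter of 5 CPM and −0.01 to 0.02 when 1 mouse was left out. Rpl41 was at −0.03 with upper-quartile scaling and Rps27a at 0.03 without a filter. When 1 mouse was left out, Cd40lg ranged from −1.04 to 0.03 and Sh3gl2 from −0.04 to 0.74. The median of the chemokine receptors was −0.0762 with upper-quartile scaling. The replicate block gained the call of Eomes (−0.80, adjusted p = 0.00561) and changed 1 other named call between 0 and 24 h. Tmem254c, seen in 2 of the 3 mice at 0 h, was not called with the replicate block (adjusted p = 0.071), without a filter (0.051), without mouse 1 (0.0711) or without mouse 2 (0.0875). Depth limits the genes near 0 at 1 time, for which bounds or counting intervals are given.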

Other observations

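Some abundant mRNAs of ribosomal proteins were not called, with 95% intervals within 0.5 of 0 on the log2 scale. Rpl41, a small protein of the large ribosomal subunit, went from 7249, 7159 and 7360.4 to 7151, 7336 and 7739 TPM, a fitted log2 change of 0.09 (SE 0.0791, adjusted p = 0.284) in edgeR's quasi-likelihood test. Rpl7 (−0.01 (SE 0.0712, adjusted p = 0.856)), Rps18 (−0.14 (SE 0.0728, adjusted p = 0.0827)) and Rpl4 (−0.09 (SE 0.0707, adjusted p = 0.233)) were not called either, while Rplp1 and Rps14 of the same list fell by 0.45 and 0.70. These depend on the setting. Rpl7, Rps18 and Rpl4 were called lower with upper-quartile scaling (−0.14, −0.26 and −0.22) and in limma on log2(TPM + 1) (−0.09, −0.20 and −0.17) and log2(TPM + 0.1), Rps18 and Rpl4 also with only the groups compared in the fit (−0.19 and −0.14), and Rps18 with total-count scaling and with Rn45s left out. The direction of Rpl41 turned with upper-quartile scaling and that of Rpl7 with RLE size factors. Ppia, a peptidyl-prolyl isomerase, rose from 7173 ± 121 to 10709 ± 126 TPM and had the highest mean TPM at 24 h after Rn45s.

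Other genes were highest at 4 or 8 h and were not called between the end points. Tagap, a GTPase-activating protein of activated T cells, was at means of 131, 1141, 612 and 140 TPM at 0, 4, 8 and 24 h and was not called between the end points (0.18 (SE 0.0983, adjusted p = 0.0935) in edgeR's test). It was called higher with RLE size factors (0.22, adjusted p = 0.0328), without a filter (0.26, 0.00607), with the filter of 5 CPM (0.20, 0.0451), without mouse 3 (0.38, 0.00313) and with DESeq2 (0.22, 0.0463). Cd40lg, the ligand of CD40, was at 6.41, 68.8, 20.5 and 4.26 TPM over these times (−0.52 (SE 0.313, adjusted p = 0.135)) and was called lower without mouse 1 (−1.04, adjusted p = 0.00942). Fosl2, an AP-1 subunit, was at 3.23, 24.8, 15.7 and 2.64 TPM and was called lower without mouse 1 (−0.44, adjusted p = 0.0239). Ramp3, which modifies a peptide hormone receptor, went through 34.8 TPM at 4 h between 2.11 and 3.68 TPM and was called higher without a filter (0.90, adjusted p = 0.0362).

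In the list of tubulins and actin cytoskeleton 14 of 28 were called higher and 10 lower, shares near those of all tested genes (37.3% and 39.0%). Stmn1, which destabilises microtubules, rose from 30.5, 22.2 and 22.1 to 449.6, 475 and 455 TPM and the lamin Lmnb1 from 5.88 ± 3.18 to 92.1 ± 1.33 TPM. The intermediate filament gene Vim fell from 423, 399 and 371 to 77.0, 60.1 and 44.9 TPM and Tuba1a from 527 ± 17.6 to 162 ± 8.14 TPM. Among chromatin genes, the methyltransferase Ezh2 rose from 8.21, 7.16 and 8.07 to 106, 96.3 and 96.0 TPM and its paralogue Ezh1 fell from 26.3, 29.1 and 34.3 to 7.45, 7.95 and 6.83 TPM, while Uhrf1, which guides maintenance DNA methylation, rose from 9.63 ± 2.24 to 176 ± 8.27 TPM. Slpi, a secreted protease inhibitor, was at 8.84, 7.95 and 8.78 TPM at 0 h and had no count at 24 h, at least 36.6-fold lower.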
